A study of Mus musculus with 6 samples.

Results

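Transcripts of the natriuretic peptide system were followed in the ventricles of paced and sham mice. The system was taken as 8 genes chosen by symbol: the hormone genes Nppa, Nppb and Nppc, the receptor genes Npr1, Npr2 and Npr3, and the protease genes Corin and Furin. Each symbol matched 1 row of the per-mouse expression table, so that 8 of its 24239 rows were examined, and 7 of these had a mean of at least 1 FPKM (fragments per kilobase of transcript, scaled to the depth of the library) and entered the test across genes. The pacing group held 3 male C57BL/6 mice, aged 8 to 10 weeks, that were paced from a bipolar catheter placed in the esophagus next to the atria. Each session held a cycle length of 80 ms for 45 min, with 3 min at 120 ms before and after it, on 5 days and, after 2 days without pacing, on 3 further days. The sham group held 3 male mice of the same strain and age that were not paced. RNA came from frozen ventricles, and the labels name no transgene, deletion or drug. The comparison asks whether repeated fast pacing from the atrium changed ventricular transcripts of this system.

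Natriuretic peptides are hormones that heart muscle releases when it is stretched, and they lower blood pressure, promote salt excretion and restrain the growth of muscle and connective tissue. Nppa encodes the precursor of atrial natriuretic peptide, made mostly in the atria of the adult heart, Nppb that of B-type natriuretic peptide, and Nppc that of C-type natriuretic peptide, made mainly outside heart muscle. Npr1 and Npr2 encode receptors that make the messenger cyclic GMP, the first for the atrial and B-type peptides and the second for the C-type peptide, whereas Npr3 encodes the clearance receptor, which takes up all of them. Corin is a membrane protease of heart muscle that cuts the precursor of the atrial peptide, and furin is a general convertase that cuts the precursors of the B-type and C-type peptides.

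Nppb and Nppa lie next to each other on chromosome 4 of the mm10 build, at chr4:147985788-147987205 and chr4:148000746-148002067, both on the plus strand, and their RefSeq starts are 14822 bases apart. The 250 bases before each start are shown because both transcripts were highest in the same mouse and lowest in the same mouse. They are RefSeq sequence of the GRCm38.p6 assembly, plus strand, 5′ to 3′, at chr4:148000472-148000721 for Nppa and chr4:147985650-147985899 for Nppb. Capitals mark matches, on either strand, to the T-box letters GGTGTGA, the NKX2-5 letters AAGTG, the GATA letters (GATA with A or T before it and A or G after it) and the M-CAT letters CATTCC, and no 2 marked matches overlap. The RefSeq start of Nppa lies 24 bases before the start of its row in the deposited table, but that of Nppb lies 112 bases after it, so that the last 112 bases of the Nppb window, with all its marked matches, fall inside the deposited Nppb interval.
Nppa: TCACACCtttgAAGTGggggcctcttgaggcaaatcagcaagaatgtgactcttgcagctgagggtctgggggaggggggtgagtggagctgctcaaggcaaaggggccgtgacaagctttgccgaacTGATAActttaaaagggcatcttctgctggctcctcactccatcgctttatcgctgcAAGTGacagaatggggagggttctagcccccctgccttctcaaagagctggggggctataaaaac
Nppb: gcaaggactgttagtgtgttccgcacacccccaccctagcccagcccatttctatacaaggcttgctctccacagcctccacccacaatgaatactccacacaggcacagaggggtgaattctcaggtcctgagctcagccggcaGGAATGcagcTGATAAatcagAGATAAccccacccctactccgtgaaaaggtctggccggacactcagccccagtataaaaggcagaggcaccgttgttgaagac
The window of Nppa held 1 T-box match, 2 NKX2-5 matches and 1 GATA match, and that of Nppb held 2 GATA matches and 1 M-CAT match. Among 32851 windows of the same length before RefSeq starts, 3.3% held the T-box letters, 40.7% the NKX2-5 letters, 26.5% a GATA match and 12.6% the M-CAT letters. A CArG box, present in 1.5% of the windows, was not matched in the 9 windows of the 8 genes. These matches describe letters and do not show that a factor binds there.

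The effective depth of the libraries, read from the steps of the lowest values, ranged from 6284000 to 8920000 fragments, so that 1 FPKM on an effective length of 2 kb stands for 12.57 to 17.84 fragments. The ventricular light chain gene Myl2 stood at 25481 to 26627 FPKM in paced mice and 26899 to 39377 FPKM in sham mice. All 6 libraries also held transcripts of atrial muscle, in unequal amounts. The summed level of 14 atrial muscle markers, with none at 0 in all mice, ranged from 2740 to 8044 FPKM in paced mice and from 135 to 5849 FPKM in sham mice. Sham 2 stood apart at the low end, and in bulk tissue fewer cells of a type and less RNA per cell cannot be told apart. Lung transcripts were high in pacing 2 and pacing 3 alone, where Sftpc, surfactant protein C of lung epithelium, had 153 and 430 FPKM, against 0.19 FPKM in pacing 1 and 0.20 to 1.0 FPKM in the sham mice. The 10 lung markers together summed to 4.50 to 1748 FPKM in paced and 0.771 to 5.63 FPKM in sham mice, with none at 0 in all mice. Log2 differences without pacing 2 and pacing 3 are therefore given beside those of the 7 tested genes, with pacing 1 alone left on the paced side and its spread taken to be that of the sham mice. Of the natriuretic peptide system, 0 of 7 tested genes passed limma at an adjusted p under 0.05, and 0% of all 11994 tested genes did. At an unadjusted p under 0.05 the count over all genes was 1062, with 620 higher and 442 lower in paced mice, and it included none of the 7. The authors' deposited table called 0 of the 8 genes, against 1.38% of its 24341 rows, from a test of their own.

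Nppa was the most abundant transcript of the system and by far the most variable. It had 3271, 7254 and 5395 FPKM in pacing 1, 2 and 3, against 7272, 353 and 3263 FPKM in sham 1, 2 and 3. The groups overlapped, since sham 1 lay above every paced mouse, while sham 2 lay 20.6-fold below sham 1. The means were 5307 ± 1993 FPKM in paced mice and 3629 ± 3474 FPKM in sham mice (SD, n = 3 each). On the log2(FPKM + 1) scale, used for all fold changes here, the difference was 1.31 with an SE of 0.93 (limma adjusted p = 0.735), and its 95% interval ran from -0.82 to 3.44. It was 0.05 without sham 2, 2.23 without sham 1 and 0.69 (SE 1.45) without pacing 2 and pacing 3. With a covariate for the adipocyte genes Adipoq, Plin1 and Cidec it was -0.43, with a wide SE of 1.29. Adipoq, the adiponectin gene, stood at 72.8, 36.2 and 28.6 FPKM in pacing 1, 2 and 3, against 27.0, 2.14 and 1.94 FPKM in sham 1, 2 and 3. The mean log2(FPKM + 1) of the 3 covariate genes was 5.21, 4.44 and 3.99 in pacing 1, 2 and 3, against 3.93, 1.16 and 0.88 in sham 1, 2 and 3. Every paced mouse thus lay above every sham mouse, so that this covariate is poorly separated from pacing in the fit. Of 10 tested adipocyte markers 10 were higher, against 48.2% of all tested genes, with a median log2 difference of 2.21. An unadjusted p under 0.05 was found for 8 of the 10, against 1062 of all 11994 tested genes. All 11 markers together, none at 0 in all mice, summed to 1979 to 2850 FPKM in paced and 1774 to 2159 FPKM in sham mice, of which Fabp4, also listed for endothelium, made up 1502 to 1951 FPKM in paced and 1581 to 1715 FPKM in sham mice. The part of these genes in the hormone values was not tested. The authors' deposited table gives 5267 FPKM for pacing and 3605 FPKM for sham, with a q-value of 0.285.

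Nppb, whose product is widely used as a blood marker of a loaded ventricle, had the same mean in both groups. It stood at 96.9, 124 and 123 FPKM in pacing 1, 2 and 3, against 152, 85.6 and 106 FPKM in sham 1, 2 and 3. The lowest and the highest mouse of the series were both sham mice, as they were for Nppa. The means were 115 ± 15.4 FPKM in paced mice and 115 ± 34.2 FPKM in sham mice (SD, n = 3 each), a log2 difference of 0.03 with an SE of 0.20 and a 95% interval from -0.42 to 0.48 (limma adjusted p = 0.982). Its span over the mice was 1.78-fold, small beside that of Nppa. The log2 difference was -0.20 (SE 0.29) without pacing 2 and pacing 3 and -0.38 (SE 0.26) with the adipocyte covariate.

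Nppc, on the minus strand at chr1:86666293-86670573, was close to undetected in these ventricles. It was listed at 0.128 FPKM in pacing 3, which is 1 fragment on its 1042-base transcript, and at 0.01 FPKM, less than 1 fragment, in the other 5 mice. In those 5 mice a count of 0 allows up to 3 fragments, which would be 0.424 to 0.546 FPKM at their depths. Nppc was too low for the test across genes, and with 5 equal values no permutation of the mice can separate the groups, so that no comparison could be made. Its single fragment came from pacing 3, a library with lung transcripts.

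**Figure D1:**
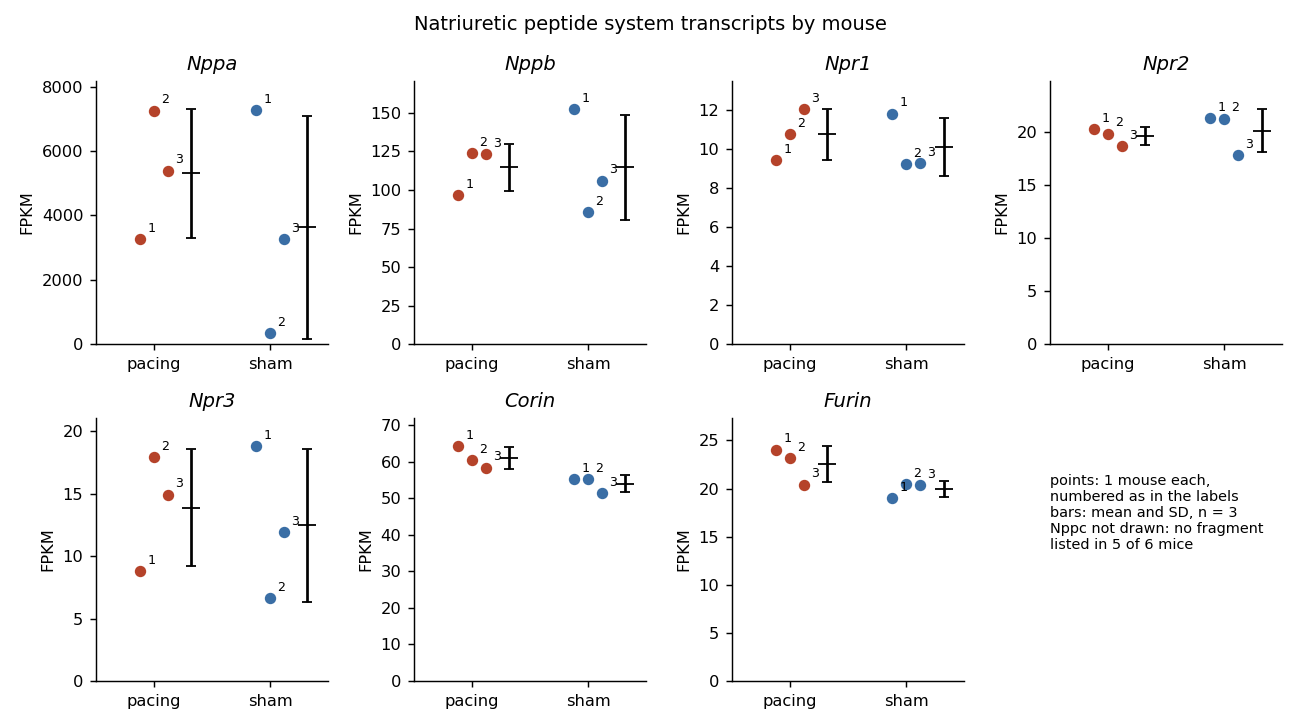
FPKM of 7 genes by mouse, 1 panel a gene with its own axis from 0, pacing left of sham, mice numbered as labelled, with bars for mean and SD (n = 3). Nppa, Nppb and Npr3 have sham 1 on top and sham 2 at the bottom, and the 3 paced values lie above the 3 sham values for Corin alone.

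Nppa followed the atrial muscle genes of the same library closely. The atrial level, taken as the mean log2(FPKM + 1) of the atrial light chains Myl7 and Myl4 and of sarcolipin, Sln, was 9.55, 11.16 and 10.62 in pacing 1, 2 and 3, against 10.65, 4.51 and 9.26 in sham 1, 2 and 3. Across the 6 mice its correlation with log2(FPKM + 1) of Nppa was r = 0.996 (exact permutation p = 0.00417, adjusted over 7 genes 0.0292) and rho = 0.943 (exact p = 0.0167, adjusted 0.0778). Myl7, Myl4 and Sln, of the 14 atrial markers, were chosen with earlier results of these data known. They are also the 3 tested genes nearest to Nppa in pattern, so that the p for Nppa is not independent support. Without sham 2 and pacing 2, the mice farthest from the median atrial level, r was 0.944 over the 4 mice left (exact p = 0.125). With 4 mice even an r of 0.991, found for Npr1, had that same p, while Corin had 0.917 (exact permutation). The p thus differs between genes, but for Nppa it did not pass, and 4 mice cannot settle whether the relation held. Centred within each group, r was 0.999. Per unit of atrial level Nppa moved by 0.67 on the log2 scale, and in sham 2 it did not drop as far as the atrial genes did. Myl7 spanned 112-fold over the mice, at 1141, 3520 and 2358 FPKM in pacing 1, 2 and 3 and at 2700, 31.4 and 966 FPKM in sham 1, 2 and 3.

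With the atrial level as a covariate, the difference of Nppa between paced and sham mice turned to -0.31 (SE 0.12, limma adjusted p = 0.713, unadjusted 0.0301). That covariate is made of the 3 tested genes nearest to Nppa in pattern over these same mice. The small SE and the unadjusted p are thus not independent support for a lower Nppa. Measured within each mouse, Nppa lay above the atrial level by 2.12, 1.66 and 1.78 on the log2 scale in pacing 1, 2 and 3. In sham 1, 2 and 3 it lay above it by 2.17, 3.96 and 2.42. Every paced value was thus below every sham value, with a difference of the means of -0.99 (exact permutation p = 0.10, the smallest that 3 against 3 mice can give, adjusted over 4 ratios 0.40). Nppa moved by 0.67 per unit of atrial level, less than unit for unit, so this ratio tends to fall where that level is higher. The group difference of the ratio thus cannot be told apart from that of the atrial level. As a plain ratio, Nppa per Myl7 was 2.87, 2.06 and 2.29 in pacing 1, 2 and 3, against 2.69, 11.2 and 3.38 in sham 1, 2 and 3, and sham 2 stood far above the other 5 mice. Pacing 1 lay above sham 1 in this ratio, so that the groups overlapped with Myl7 alone. Without sham 2 the log2 difference of Nppa against the atrial level was -0.44, and the part of atrial tissue in it was not tested.

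Nppb minus the atrial level was -2.94, -4.20 and -3.66 on the log2 scale in pacing 1, 2 and 3, against -3.39, 1.92 and -2.51 in sham 1, 2 and 3, so that sham 2 alone had Nppb above it (difference of the means -2.27, exact permutation p = 0.20, adjusted 0.40). As Nppb had a slope of only 0.09 on the atrial level, this difference mostly carries that level with its sign reversed and does not show a fall of Nppb. Nppa was 33.8, 58.6 and 43.7 times as abundant as Nppb in pacing 1, 2 and 3, against 47.7, 4.13 and 30.8 times in sham 1, 2 and 3, with the low ratio in sham 2, the mouse with the least atrial RNA. The log2 ratio of Nppb to Nppa differed by -1.28 between paced and sham mice (exact permutation p = 0.30, adjusted 0.40). Without sham 2 that difference was -0.21, and that of Nppb against the atrial level was -0.65. Nppb itself had r = 0.789 with the atrial level (exact p = 0.0458, adjusted 0.107) and a slope of 0.09, against 0.67 for Nppa. With the atrial level as a covariate its log2 difference was -0.25 (SE 0.13, limma adjusted p = 0.787).

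**Figure D2:**
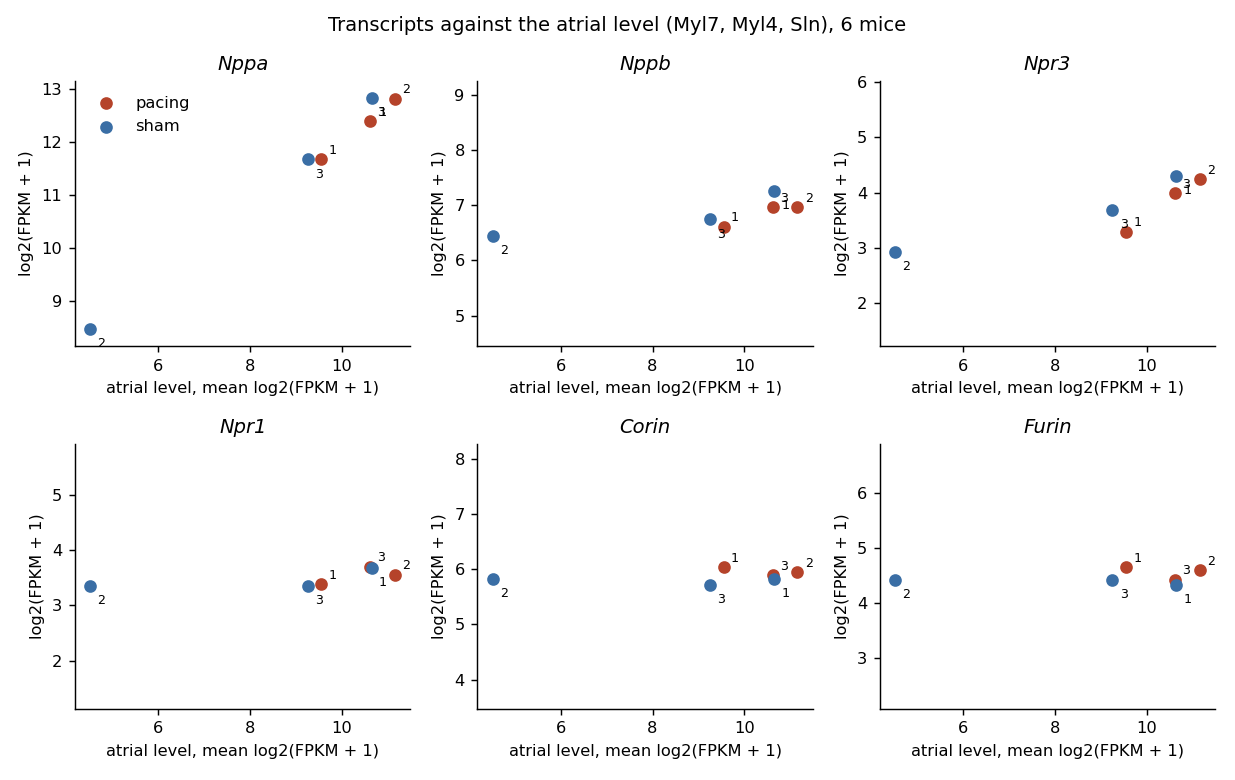
Log2(FPKM + 1) of 6 genes against the atrial level of the same mouse (mean log2(FPKM + 1) of Myl7, Myl4 and Sln), 1 point a mouse, numbered as labelled, pacing in red and sham in blue, with vertical axes of about the same span. Sham 2 lies far to the left at 4.51, Nppa climbs by 0.67 per unit, Npr3 by 0.19, and Corin and Furin run flat.

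Among the receptors, the clearance receptor gene Npr3, on the minus strand at chr15:11839896-11907390, differed most between mice. It had 8.78, 18.0 and 14.9 FPKM in pacing 1, 2 and 3, against 18.8, 6.64 and 11.9 FPKM in sham 1, 2 and 3. Its mice stood in exactly the order seen for Nppb, with sham 1 at the top and sham 2 at the bottom, and the groups overlapped. The means were 13.9 ± 4.69 FPKM in paced and 12.5 ± 6.12 FPKM in sham mice (SD, n = 3 each), a log2 difference of 0.20 with an SE of 0.35 and a 95% interval from -0.59 to 0.99 (limma adjusted p = 0.904). Npr3 too went with the atrial level, at r = 0.864 (exact p = 0.00972, adjusted 0.034) and rho = 0.886 (exact p = 0.0333, adjusted 0.0778). Over the 4 mice left without sham 2 and pacing 2 it was r = 0.805 (exact p = 0.292), which did not pass, and again 4 mice cannot settle it. With the atrial level as a covariate its log2 difference turned to -0.34 (SE 0.19, limma adjusted p = 0.807), with the adipocyte covariate to -0.33 (SE 0.51), without pacing 2 and pacing 3 to -0.36 (SE 0.46), and without sham 2 to -0.16. Npr3 is carried by endocardial cells of the mouse heart, and 7 endocardial markers other than Npr3 summed to 171, 218 and 183 FPKM in pacing 1, 2 and 3, against 200, 121 and 143 FPKM in sham 1, 2 and 3. Sham 2 was lowest there as well, and the part of endocardial or atrial tissue in the Npr3 values was not tested.

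Npr1, the receptor gene for the atrial and B-type peptides, on the minus strand at chr3:90450592-90465866, varied little. It had 9.42, 10.8 and 12.0 FPKM in pacing 1, 2 and 3, against 11.8, 9.23 and 9.25 FPKM in sham 1, 2 and 3, a span of 1.30-fold over all mice. Sham 1 lay among the paced mice, and the other sham mice lay just below pacing 1. The log2 difference was 0.08 with an SE of 0.12 and a 95% interval from -0.20 to 0.37 (limma adjusted p = 0.880). It was -0.02 with the atrial covariate, -0.09 with the adipocyte covariate and -0.08 without pacing 2 and pacing 3. Its correlation with the atrial level was r = 0.647 over the 6 mice (exact p = 0.0847, adjusted 0.148).

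Npr2, the receptor gene for the C-type peptide, on the plus strand at chr4:43631935-43651240, was the most even of the receptors. It had 20.3, 19.8 and 18.7 FPKM in pacing 1, 2 and 3, against 21.3, 21.2 and 17.8 FPKM in sham 1, 2 and 3. All 3 paced values lay inside the range of the sham mice. The log2 difference was -0.03 with an SE of 0.09 and a 95% interval from -0.25 to 0.18 (limma adjusted p = 0.950), and it was 0.04 after rescaling the libraries to the same sum and 0.02 without pacing 2 and pacing 3. With the adipocyte covariate it was -0.17 (SE 0.15). Its correlation with the atrial level was r = -0.345 (exact p = 0.544, adjusted 0.66). Npr2 was thus well detected while the gene of its ligand, Nppc, was hardly seen in the same tissue.

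The balance of the clearance receptor to the signalling receptor of the atrial peptide was taken within each mouse. Npr3 per Npr1 was 0.932, 1.67 and 1.24 in pacing 1, 2 and 3, against 1.60, 0.719 and 1.29 in sham 1, 2 and 3. Neither group lay to one side, and the log2 difference was 0.11 (exact permutation p = 0.80, adjusted over 4 ratios 0.80). Its sign depends on single mice, as it was -0.08 without pacing 2 and -0.19 without sham 2.

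The protease genes behaved unlike the hormone genes, with little spread within each group. Corin, on the minus strand at chr5:72300025-72504540, had 64.4, 60.4 and 58.4 FPKM in pacing 1, 2 and 3, against 55.3, 55.3 and 51.4 FPKM in sham 1, 2 and 3. Each paced mouse lay above each sham mouse, which held for 1 of the 7 tested genes of the system and for 6.24% of all tested genes, and 13.2% of all tested genes were separated in one direction or the other. The means were 61.1 ± 3.02 FPKM in paced and 54.0 ± 2.24 FPKM in sham mice (SD, n = 3 each). The log2 difference of Corin was 0.17 with an SE of 0.08 and a 95% interval from -0.0024 to 0.35 (limma adjusted p = 0.568, unadjusted 0.0526), so that it did not pass. It had the smallest p of the 7 genes, although 9.25% of all tested genes had a smaller one.

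Furin, on the minus strand at chr7:80389194-80405436, had 24.1, 23.1 and 20.4 FPKM in pacing 1, 2 and 3, against 19.0, 20.4 and 20.4 FPKM in sham 1, 2 and 3. Pacing 1 and pacing 2 lay above all sham mice, while pacing 3 lay among them. The log2 difference was 0.17 with an SE of 0.09 and a 95% interval from -0.03 to 0.37 (limma adjusted p = 0.646). The relation to the atrial level passed for neither protease gene, with r = 0.291 for Corin (exact p = 0.565, adjusted 0.66) and r = 0.159 for Furin (exact p = 0.783, adjusted 0.783). With that level as a covariate the log2 differences were 0.19 for Corin (SE 0.09) and 0.20 for Furin (SE 0.10). Without pacing 2 and pacing 3, the libraries with lung transcripts, they were 0.25 (SE 0.13) and 0.26 (SE 0.13). With the adipocyte covariate they were 0.09 (SE 0.13) and 0.19 (SE 0.15), and the part of fat tissue in them was not tested.

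**Figure D3:**
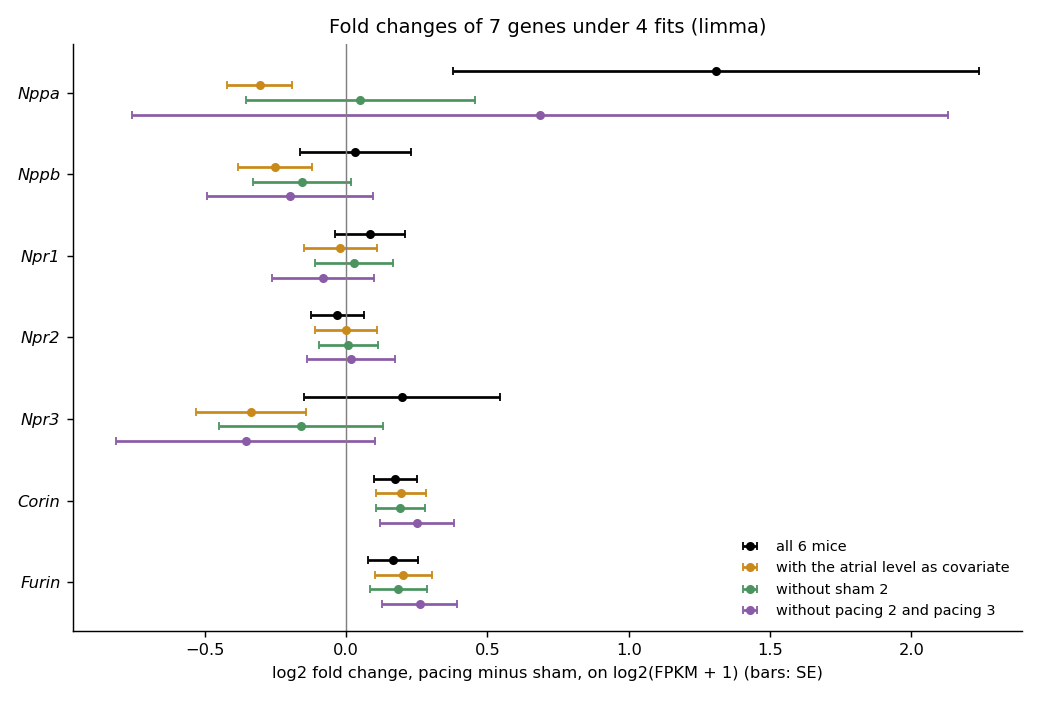
Log2 fold changes of 7 genes, paced minus sham mice, with SE bars, from limma over all 6 mice and under 3 other fits. Nppa stands at 1.31 over all mice, at -0.31 with the atrial level as a covariate and at 0.05 without sham 2. Corin and Furin lie between 0.17 and 0.26 in the fits drawn. The fit with the adipocyte covariate, at 0.09 for Corin and 0.19 for Furin, is not drawn.

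Ordered by their mean over all mice, the transcripts ran Nppa, Nppb, Corin, Furin, Npr2, Npr3, Npr1 and Nppc, and FPKM, being per length, allows this comparison. Nppa exceeded Nppb, Nppb exceeded Corin and Corin exceeded Furin in 6 of 6 mice. Furin exceeded Npr2 in 4 of 6 mice, and Npr3 exceeded Npr1 in 4 of 6, so that neither of these pairs has a fixed order. Npr2 was above Npr3 in each mouse, although the highest Npr3 value, 18.8 FPKM, was above the lowest Npr2 value, 17.8 FPKM.

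The genes whose pattern over the 6 mice was most like that of each gene were found by Pearson's r on log2(FPKM + 1) among all tested genes, as a description. The nearest to Nppa were the atrial muscle genes Myl7, Myl4 and Sln, with r from 0.994 to 0.997, the same genes that make up the atrial level. Nearest to Nppb were F2r, the thrombin receptor gene, Zfp444 and Scrn1, with r from 0.990 to 0.996, and nearest to Npr3 were Lad1, Megf6 and Ptgs1, with r from 0.986 to 0.991. Corin was nearest to Pcx, the pyruvate carboxylase gene, Ndst2 and Ankrd1 (r from 0.984 to 0.990). Ankrd1, a stretch-responsive gene of heart muscle, had 1016, 956 and 931 FPKM in pacing 1, 2 and 3, against 830, 853 and 791 FPKM in sham 1, 2 and 3. Npr1 was nearest to Slc7a2, Cplx2 and Mettl6, Npr2 to Sec24b, Dhtkd1 and Mtl5, and Furin to Ap3d1, Fez1 and Cds1. With 11994 genes and 6 mice, an r of at least 0.987 was reached by the nearest gene of every one of the 7.

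Downstream of the receptors, 7 further membrane cyclases and cyclic GMP dependent kinases were listed, of which Prkg1 alone was tested. Prkg1, the main kinase that cyclic GMP activates in muscle and vessel walls, averaged 2.76 ± 0.914 FPKM in paced and 2.84 ± 0.604 FPKM in sham mice (log2 difference -0.05, SE 0.20). Of 16 tested phosphodiesterase genes, whose enzymes break down cyclic nucleotides, 6 were higher, 10 lower and 0 called, with a median of -0.03, against -0.01 over all tested genes. After rescaling to the same sum that median was 0.03, that of the transcription factors below was 0.06 and Prkg1 stood at 0.01, so that these signs depend on the scaling. Pde2a, an enzyme that cyclic GMP itself stimulates, had 22.9, 26.8 and 23.5 FPKM in pacing 1, 2 and 3, against 29.5, 30.9 and 27.9 FPKM in sham 1, 2 and 3. All paced values of Pde2a lay below all sham values, without passing (log2 difference -0.26, SE 0.09, limma adjusted p = 0.484). Pde5a, which breaks down cyclic GMP and was chosen after its values were seen, lay the other way, at 1.56, 1.53 and 2.69 FPKM in pacing 1, 2 and 3, against 1.39, 1.20 and 0.973 FPKM in sham 1, 2 and 3 (0.40, SE 0.18, limma adjusted p = 0.569). Thus 2 of the 16 genes were separated between the groups, against 13.2% of all tested genes. Pde3b, which also serves fat cells, averaged 3.06 ± 0.685 FPKM in paced and 1.76 ± 0.799 FPKM in sham mice (0.58, SE 0.21, limma adjusted p = 0.507), beside the higher Adipoq of the paced mice, whose part in it was not tested.

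Of 4 tested genes of the soluble cyclase and of nitric oxide synthases, the other source of cyclic GMP, 3 were higher, 1 lower and 0 called (median 0.02). Gucy1a3, a subunit of the soluble cyclase, had 9.89, 13.5 and 15.5 FPKM in pacing 1, 2 and 3, against 10.4, 7.28 and 7.57 FPKM in sham 1, 2 and 3 (log2 difference 0.56, SE 0.18, limma adjusted p = 0.473). Nos2, the inducible synthase gene, averaged 3.04 ± 0.428 FPKM in paced and 3.56 ± 0.26 FPKM in sham mice. Among 9 tested substrates and partners of the cyclic GMP kinase, 3 were higher, 6 lower and 0 called (median -0.09). Their smallest p-values were those of Rgs5, a pericyte regulator of G proteins, with a log2 difference of -0.33 (SE 0.13), and of the thick filament gene Mybpc3, with -0.36 (SE 0.15).

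On the side of peptide processing and breakdown, 7 of 11 tested genes were higher, 4 lower and 0 called, with a median of 0.02. Ide, the insulin-degrading enzyme gene, whose product also cuts natriuretic peptides, had 18.2, 17.6 and 18.9 FPKM in pacing 1, 2 and 3, against 19.2, 23.6 and 20.4 FPKM in sham 1, 2 and 3. Its paced values all lay below its sham values, as the single gene of these 11 that was separated, against 13.2% of all tested genes, again without passing (log2 difference -0.19, SE 0.09, limma adjusted p = 0.617). Pam, a peptide-amidating enzyme abundant in atrial muscle, had 272, 504 and 408 FPKM in pacing 1, 2 and 3, against 408, 166 and 252 FPKM in sham 1, 2 and 3, with sham 2 lowest as for Nppa.

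Of 20 tested transcription factors that act on the hormone genes, 10 were higher, 10 lower and 0 called, with a median of -0.01. Srf, the serum response factor gene, had 21.0, 21.2 and 19.2 FPKM in pacing 1, 2 and 3, against 17.6, 18.4 and 17.5 FPKM in sham 1, 2 and 3. Gata4, the main GATA factor gene of heart muscle, had 32.8, 32.1 and 32.5 FPKM in pacing 1, 2 and 3, against 38.4, 36.8 and 34.9 FPKM in sham 1, 2 and 3. Separated between the groups were 5 of the 20, against 13.2% of all tested genes: Srf with all paced mice higher, and Gata4, Myocd, Nfatc3 and Jarid2 with all paced mice lower, the last 3 named after their values were seen. Neither Srf nor Gata4 passed, with a log2 difference of 0.19 for Srf (SE 0.08, limma adjusted p = 0.562) and of -0.17 for Gata4 (SE 0.07, limma adjusted p = 0.562).

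Genes that respond to load or return to a fetal level in stressed hearts, the setting in which Nppa and Nppb are usually read, leaned higher. Of 19 tested, 14 were higher, 5 lower and 0 called, with a median of 0.23, while 48.2% of all tested genes were higher. The median was 0.05 without pacing 2 and pacing 3, the libraries with lung transcripts, and 0.14 with the adipocyte covariate. Of the 19 load genes, 4 had every paced mouse above every sham mouse, against 6.24% of all tested genes. Csrp3, a muscle LIM protein gene named after its values were seen, had every paced mouse below, so that 5 were separated in all, against 13.2% of all tested genes. Ctgf, a matricellular growth factor gene, had 39.4, 63.1 and 55.2 FPKM in pacing 1, 2 and 3, against 28.8, 22.5 and 31.3 FPKM in sham 1, 2 and 3 (log2 difference 0.90, SE 0.18, limma adjusted p = 0.306). Fhl1, a stretch-sensing protein gene of the sarcomere, averaged 81.0 ± 4.45 FPKM in paced and 65.2 ± 4.64 FPKM in sham mice (log2 difference 0.31, SE 0.08, limma adjusted p = 0.399). Among the marker lists, 13 of 13 tested atrial, 10 of 10 adipocyte, 9 of 9 lung, 11 of 11 fibroblast, 6 of 6 endocardial and 7 of 7 mesothelial genes were higher. On leaving out 1 mouse the atrial median ran from 0.35 to 1.98 and the endocardial median from 0.09 to 0.69. Bmp10 (atrial) and Tmem108 (endocardial), named after their values were seen, were higher on the log2 scale only. Their mean FPKM in paced and sham mice was 27.9 against 35.5 for Bmp10 and 2.05 against 2.23 for Tmem108. Lower were 7 of 8 ventricular genes (median -0.22) and 9 of 10 endothelial genes (median -0.17), and the part of these tissues in the load genes was not tested.

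**Figure D4:**
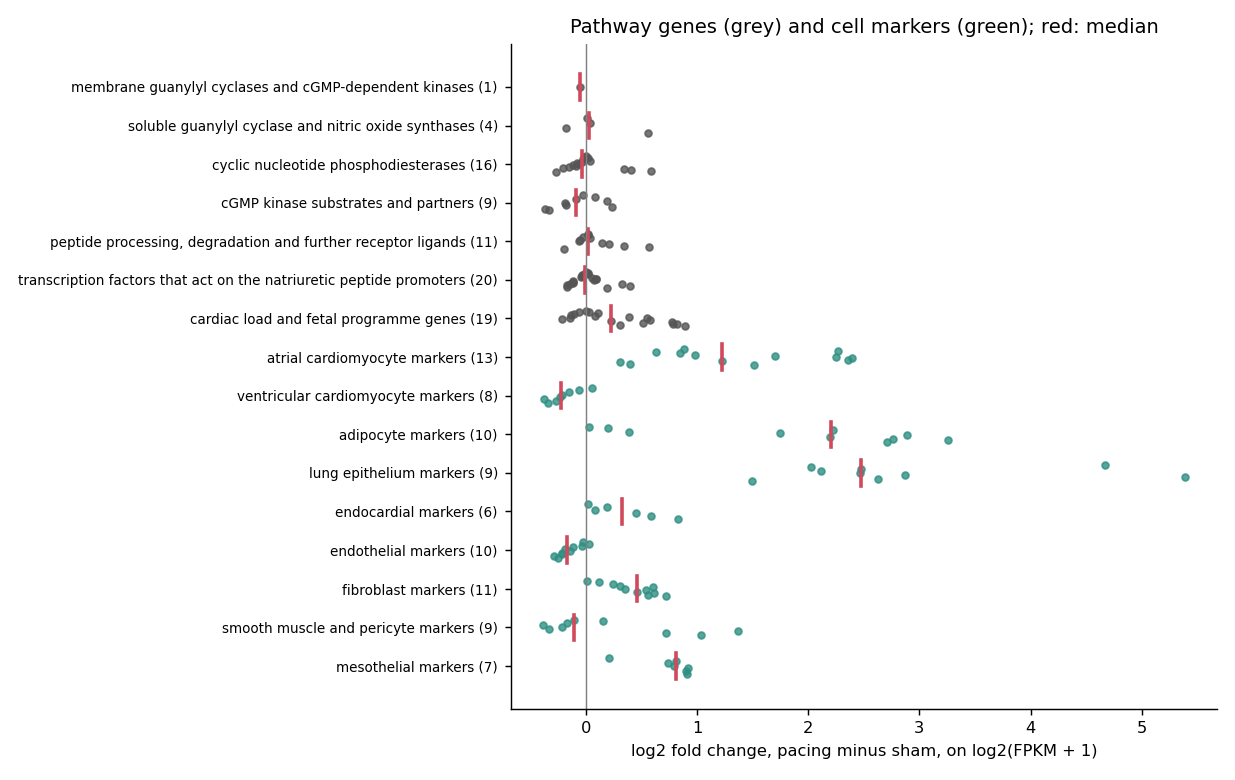
Log2 fold change, paced minus sham mice, of each tested gene in 7 pathway lists (grey) and 9 marker lists (green), with the number tested in brackets and the median of each list as a red bar. The medians of 6 pathway lists lie between -0.09 and 0.02, near enough to 0 for some signs to turn with the scaling, that of load genes at 0.23, and those of atrial, adipocyte and lung markers at 1.23, 2.21 and 2.47.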

How the data were processed

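RNA of 6 mouse ventricles was measured with a stranded polyA kit and paired reads 151 bases long (per the labels' protocols). Cuffdiff and Cufflinks, with Bowtie2 2.2.6, TopHat2 2.1.0 and FastQC 1.0.0, are listed with the mm10 build in the submitters' processing notes, without their roles. Annotation, filters and strand setting were not given in the sources used here. FPKM values per gene and mouse were deposited by the authors, and so was a table of group FPKM and q-values. Start positions are counted from 0 in the files (72.7% of 11740 genes lay 1 below the RefSeq start), so 1 was added. The strand column holds 1 value throughout, so strands were taken from GENCODE. Of 10 annotations that overlap the 8 genes there, 1 is a row of the table, Gm5144 opposite Npr3, at a mean of 0.266 FPKM.

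Depth was derived from 616 genes with 1 exon, with lengths shortened by 168 bases, where 100% of values under 10 fragments were whole within 0.05 of a fragment. Fragment counts cover counting error only. FPKM is not a count, so genes with a mean of at least 1 FPKM entered limma 3.58.1 (R 4.3.3) as log2(FPKM + 1), a scale that understates the change of low genes (trend, group only, two-sided, Benjamini-Hochberg over 11994 genes), a procedure checked on simulated data. A gene with a failed estimate was left out. Permutation tests and correlations were exact and two-sided, with 4 ratios and 7 relations adjusted as families. The series design describes separate mice, so p-values measure the spread between mice, and at most 0.0127% of the values were identical between any pair of libraries. The genes, lists and tests were chosen with earlier results of these data known. Named genes were the 8 genes of the system, the 2 genes with the smallest p of each pathway list, the 3 nearest in pattern to each tested gene, and the markers Myl7, Myl4, Sln, Myl2, Adipoq and Sftpc. The alternatives were other pseudocounts, filters, scalings and variance models, a replicate block, tissue covariates, libraries left out, Myl7 alone as the atrial level and a stricter q-value in the authors' table.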

Additional observations from a re-analysis of the deposited data

How the results depend on the processing

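No gene of the system passed under any fit run, and Corin, Furin and Nppa relative to the atrial level kept their direction under each alternative. The last of these is a ratio that tends to fall where the atrial level is higher, so its direction is not separate from that level. Nppa turned to -0.31, Nppb to -0.25, Npr1 to -0.021 and Npr3 to -0.34 with the atrial covariate. With the adipocyte covariate they turned to -0.43, -0.38, -0.087 and -0.33 (SE 1.29, 0.26, 0.19 and 0.51). Without pacing 2 and pacing 3 together, Nppb stood at -0.20, Npr1 at -0.082, Npr2 at 0.016 and Npr3 at -0.36. Npr2 was 0.041 after rescaling to the same sum and 0.0056 with array weights. Leaving out 1 mouse at a time gave 0.05 to 2.23 for Nppa, -0.16 to 0.26 for Nppb, -0.11 to 0.0093 for Npr2, -0.16 to 0.53 for Npr3, -0.19 to 0.34 for Npr3 against Npr1, -3.30 to -0.65 for Nppb against the atrial level and -1.97 to -0.21 for Nppb against Nppa. Where leaving out mice changed a value, fewer samples were fitted, and the cause of the other changes was not tested. Without sham 2 and pacing 2 the r with the atrial level was 0.944 for Nppa and 0.805 for Npr3, no longer past the threshold, which Npr1 at 0.991 did not reach over those 4 mice either, and it turned to 0.466 for Npr2 and -0.553 for Furin. Centred within each group it turned to -0.334 for Corin and -0.385 for Furin. Over all genes limma called 6 higher with no filter, 1 with robust eBayes and 0 to 106 higher and 0 to 1 lower on leaving out 1 mouse (106 higher and 1 lower without sham 1, 7 and 1 without pacing 1, 1 and 0 without pacing 3). With a replicate block 7 genes were called higher, but same-numbered mice did not deviate together (correlations -0.125, -0.022 and -0.02), so the numbers do not pair the mice. Centring on the median turned the median of the soluble cyclase list to -0.0002 and that of the processing list to -0.0032. With a minimum of 5 FPKM no membrane cyclase or kinase was left to give a median. Depth limits Nppc alone among the 8 genes.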

Other observations

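Vessel wall cells are targets of natriuretic peptides. Of 9 tested smooth muscle and pericyte markers, 4 were higher, 5 lower and 0 called in limma (median log2 fold change -0.10). An unadjusted p under 0.05 was found for 6 of the 9, against 1062 of all 11994 tested genes. Of these, Tagln, Myh11 and Cnn1 were higher in paced mice, while Rgs5, Kcnj8 and Abcc9 were lower. The contractile genes Tagln, Myh11 and Cnn1 had every paced mouse above every sham mouse, as 6.24% of all tested genes did. Acta2, a contractile gene placed among the load genes, overlapped instead, since sham 1 at 70.6 FPKM lay above pacing 2 at 61.7 FPKM. Kcnj8 alone of the 9 had every paced mouse below every sham mouse. Of all tested genes, 13.2% were separated in one direction or the other. Tagln, which encodes transgelin, had 83.7, 59.9 and 76.6 FPKM in pacing 1, 2 and 3, against 48.4, 25.6 and 34.3 FPKM in sham 1, 2 and 3 (1.04, SE 0.21, limma adjusted p = 0.315). Myh11, smooth muscle myosin, had 21.5, 13.2 and 17.8 FPKM in pacing 1, 2 and 3, against 10.5, 10.3 and 9.31 FPKM in sham 1, 2 and 3 (0.72, SE 0.16, limma adjusted p = 0.316). Kcnj8, a potassium channel gene of pericytes, had 24.7, 29.2 and 29.0 FPKM in pacing 1, 2 and 3, against 31.0, 31.7 and 33.5 FPKM in sham 1, 2 and 3 (-0.21, SE 0.09, limma adjusted p = 0.562). Tagln, Myh11, Cnn1, Kcnj8, Abcc9 and Acta2 were named after their values were seen, and the part of unequal tissue content in them was not tested.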
